A study of Bubalus bubalis with 36 samples.

Results

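The striated-muscle miRNAs bta-miR-1, bta-miR-133a, bta-miR-133b, bta-miR-206, bta-miR-208b and bta-miR-499 were examined across the fat depots of water buffalo (Bubalus bubalis). They are 6 rows, chosen by name, of a table of 1682 features in which 695 carry a bovine (bta) miRNA name. Adipose tissue of 6 buffaloes was sequenced as small RNA, with 1 library from each of 6 depots of every animal, so the 6 libraries of a depot come from separate animals. Subcutaneous fat came from the back (BSAT), from over the sternum (SSAT) and from the groin (inguinal, IAT). Visceral fat was taken from the omentum (OAT), around the heart (pericardial, PCAT) and around the kidney (perirenal, PRAT), giving 18 libraries a class. The labels give all animals 1 regime and no treatment: weaning at 3 months of age, fattening that began at 15 months, and slaughter at 20. A library is named below by depot and animal, so BSAT2 is the back fat of animal 2.

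miR-1 and miR-133a are processed from shared transcripts in heart and skeletal muscle, and in mammals they are among the miRNAs by which striated muscle is recognised. miR-206 and miR-133b come from a transcript made in skeletal muscle and satellite cells, whereas miR-208b and miR-499 lie in introns of the myosin heavy chain genes MYH7 and MYH7B, which are used in heart and in slow skeletal fibres. In mouse, miR-133 holds back the brown fat programme through PRDM16, and miR-206 and miR-1 share a seed. Because miR-133a and miR-133b have nearly the same sequence, reads may have been divided between them, and the separate values of these rows are uncertain to that extent. A piece of fat sequenced in bulk holds adipocytes together with vessels and blood, and can hold muscle fibres. In such samples fewer cells of a type and less RNA per cell cannot be told apart.

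Levels are given as CPM, counts scaled to a common library total after TMM normalization (trimmed mean of M values), and as log2 CPM with an added count of 2. Library totals ran from 9484589 to 13920998 counts with a median of 12525362, and 3 counts, the floor used here for a count of 0, came to 0.187 to 0.327 CPM. Differences between groups were fitted over all 667 features that passed a filter on low counts with edgeR's quasi-likelihood test, and a feature was called at an adjusted p below 0.05 (Benjamini-Hochberg). Signs are for the first-named group minus the other. Some library names end in A and others in B, which the labels do not explain. Of 8 libraries with letter A, 1 was subcutaneous and 7 were visceral. Of the reads of miR-26a and miR-26c together, miR-26a held 88.9 to 97.3% in 19 libraries and 4.95 to 18.6% in the remaining 17. The 7 rows of the adipocyte list, miRNAs that other cells also make, summed to 8400 to 91800 CPM.

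All 6 muscle miRNAs were present in buffalo fat, at very different levels. miR-1 was the most abundant, with 44233 counts over the 36 libraries and rank 150 of 1682 by mean CPM. miR-206 followed with 38708 counts and rank 161, and miR-499 with 8785 counts and rank 245. These 3 had at least 10 counts in all 36 libraries. miR-133a had 1688 counts in all, miR-133b 1021 and miR-208b 416, and they reached 10 counts in 25, 14 and 9 libraries. miR-208b was at 0 in 19 libraries, miR-133b in 3 and miR-133a in 1. All 6 passed the filter, and 17 libraries held every one of them.

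Their sum ran from 23.6 CPM in BSAT3 to 2950 CPM in BSAT2, with a median of 92.0 CPM. Sternum fat had the narrowest range, 35.9 to 58.2 CPM, and pericardial fat had 83.5 to 303 CPM. miR-1 was the most abundant of the 6 in 25 libraries, miR-206 in 9 and miR-499 in 2. The make-up changed from library to library: miR-1 took 93.3% of the reads of the 6 in PRAT6 (95% Wilson interval 92.9 to 93.8%), whereas miR-206 took 75.6% in BSAT2 (75.1 to 76.0%). In OAT2 miR-499 led with 52.5% (49.0 to 55.9%), and in BSAT4 with 55.6% (51.6 to 59.6%). Such intervals and floors cover counting error only.

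**Figure D1:**
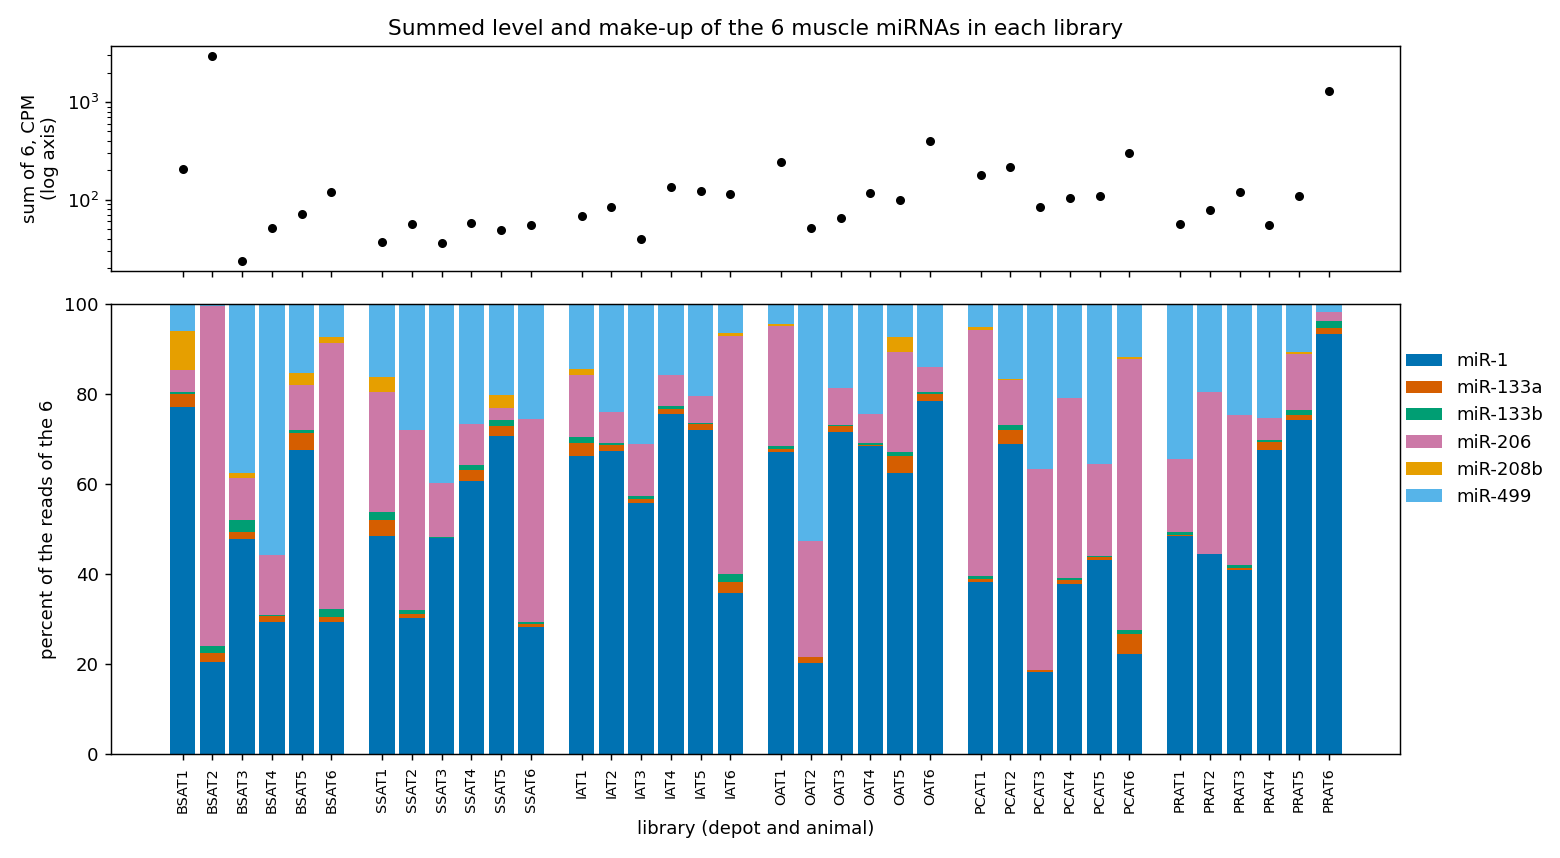
Summed level of the 6 muscle miRNAs in CPM (upper panel, log axis) and the percentage of their reads that each took (lower panel, stacked bars) in the 36 libraries, grouped by depot. BSAT2 at 2950 CPM was mostly miR-206 and PRAT6 at 1300 CPM mostly miR-1, while miR-208b was visible in BSAT1 at 8.76%.

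miR-1, the general marker of striated muscle, was found at 17.7, 17.2, 17.3, 35.3, 34.4 and 15.7 CPM in the sternum fat of animals 1 to 6. In back fat it was at 159, 607, 11.3, 15.3, 48.3 and 35.0 CPM. Sternum libraries were close to each other and low, and back libraries were spread over more than the whole sternum range. Inguinal fat ran from 22.0 to 101 CPM (median 50.8), omental fat from 10.3 to 312 CPM (median 70.9), and pericardial fat from 15.2 to 150 CPM (median 57.4). Perirenal fat held 27.5, 34.8, 49.0, 37.4 and 81.8 CPM in animals 1 to 5 and 1210 CPM in animal 6. Depot means of log2 CPM fell in the order PRAT 6.23, OAT 6.14, BSAT 5.79, IAT 5.71, PCAT 5.70 and SSAT 4.44. Between neighbours in that order only PCAT and SSAT differed by more than their pooled SD (1.26 against 0.86), and their ranges overlapped.

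In sternum fat miR-1 was lower than the mean of the animal's other 5 depots in 6 of 6 animals, with a fitted log2 difference of −2.24 ± 0.81 (SE) and an adjusted p of 0.0727, which missed the threshold. miR-206 (−1.99 ± 0.98, adjusted p = 0.21) and miR-499 (−0.63 ± 0.34, adjusted p = 0.257) were also lower there in 6 of 6 animals. None of the 6 was called in sternum fat, where 9.30% of all features tested were called. miR-1 was called lower there by DESeq2, by scaling to library totals alone and among features of at least 10 CPM. With the animal as a block it was not called (−1.66, edgeR adjusted p = 0.158), and without PRAT6 the difference shrank to −1.72. The erythrocyte miRNA miR-451 also fell in sternum fat (−1.43 ± 0.38, adjusted p = 0.0174), and the sum of 3 erythroid miRNAs was 8230 to 35000 CPM in sternum fat against 46000 to 186000 CPM in back fat. The part of blood in the muscle miRNA levels was not tested.

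In perirenal fat miR-1 differed from the other depots by 1.82 ± 0.60 on the log2 scale (adjusted p = 0.0906), and animals were divided, 3 higher and 3 lower. Without PRAT6 the difference was −0.51. miR-133b went the same way, at 1.51 ± 0.85 (adjusted p = 0.432) with all libraries and −1.19 without PRAT6. No muscle miRNA was called in perirenal fat, where 3.15% of features were. PRAT6 had 11111 counts of miR-1, 25.1% of all miR-1 counts in the study, together with 17.9 CPM of miR-133a and 19.3 CPM of miR-133b. Its miR-206 (26.7 CPM) and miR-499 (21.7 CPM) lay within the range of the other perirenal libraries, and its miR-208b was at 0.98 CPM from 9 counts. miR-1 exceeded miR-206 by 45.4 times in PRAT6, the highest ratio of the 36 libraries, whereas in BSAT2 the ratio was 0.272, the lowest.

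PRAT6 also had the highest miR-143, a miRNA of smooth muscle and adipocytes, at 85800 RPM (the deposited reads scaled to a common library total) against 9340 to 44100 RPM in the other 35 libraries. The smooth muscle and stroma list (90500 CPM) and the adipocyte list (91800 CPM) both had their highest sum there. miR-143 belongs to both lists and makes up most of these sums, so they largely repeat its value. miR-145, which is made with miR-143, ranked 3 of 36 at 820 RPM. The part of these miRNAs in the miR-1 level of PRAT6 was not tested.

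**Figure D2:**
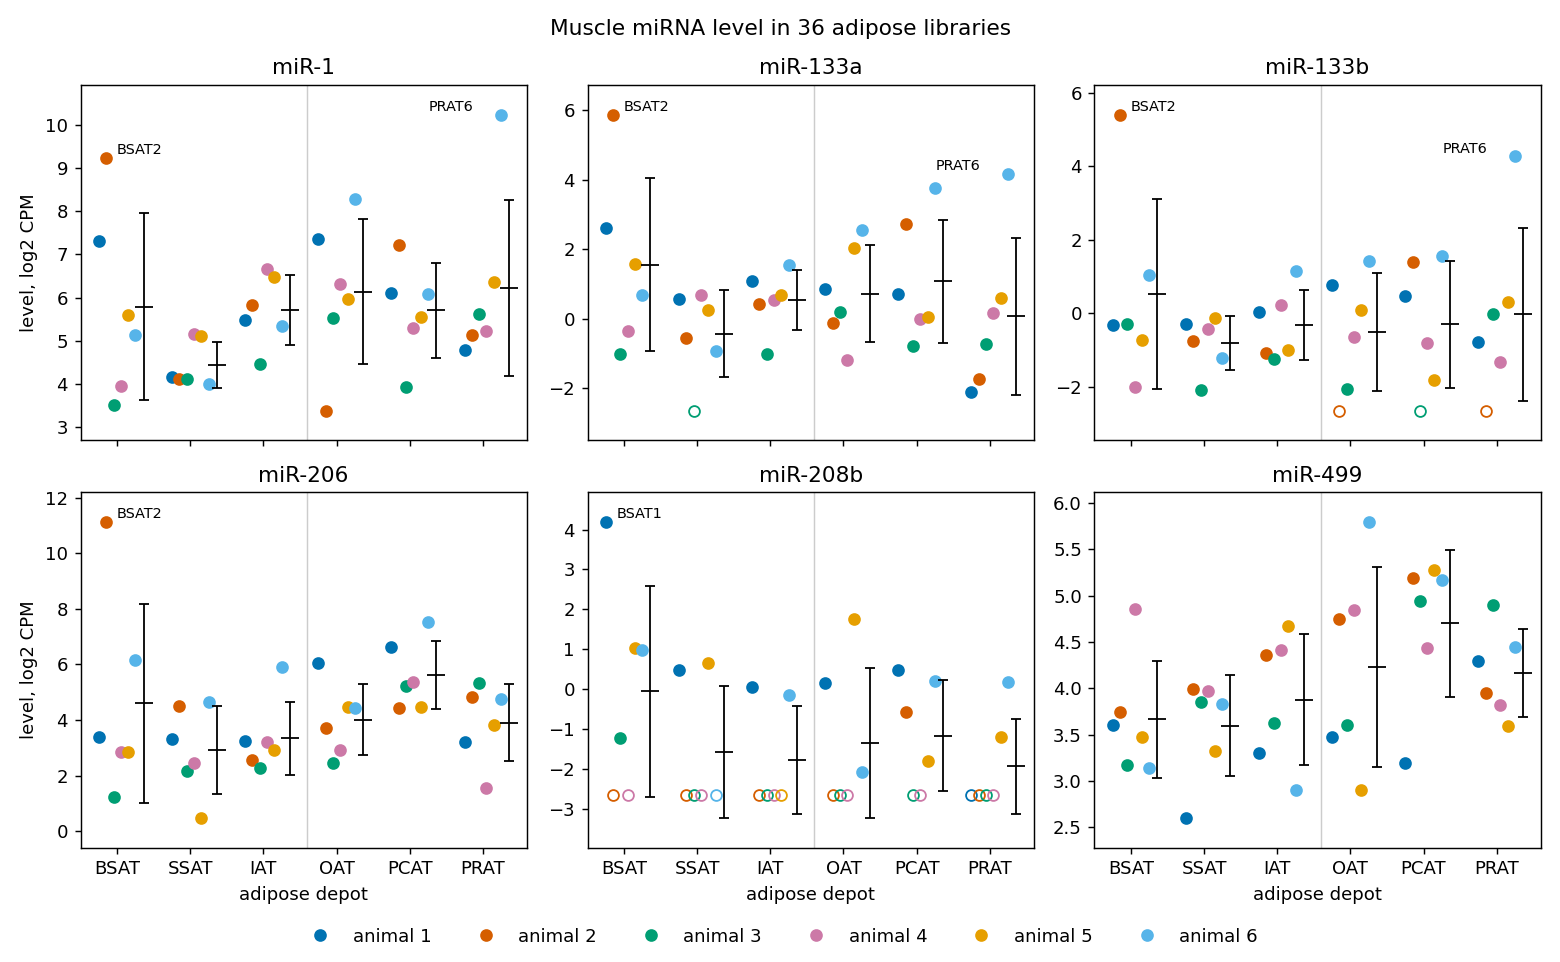
Level of each muscle miRNA (log2 CPM) in the 6 depots, with subcutaneous depots left and visceral depots right of the vertical line. Points are libraries coloured by animal, open circles are libraries at 0 counts, and the bar beside them is the mean ± SD (n = 6); BSAT2 and PRAT6 stand above all other libraries for miR-1, miR-133a and miR-133b.

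miR-206, the skeletal muscle member, was found at 10.3, 2228, 2.20, 7.02, 7.11 and 70.5 CPM in the back fat of animals 1 to 6. BSAT2 held 26975 of its counts, 69.7% of all miR-206 counts in the study, and 3 of the other 5 back libraries lay below 8 CPM. Sternum fat held 9.70, 22.7, 4.30, 5.31, 1.22 and 25.1 CPM, and inguinal fat 4.61 to 60.0 CPM (median 8.18). Omental fat ran from 5.36 to 65.5 CPM (median 17.4), and perirenal fat from 2.74 to 39.7 CPM (median 20.3). Pericardial fat held 98.7, 21.7, 37.3, 41.2, 22.1 and 182 CPM. All 6 pericardial libraries lay above 20 CPM, as did 3 of 6 omental, 3 of 6 perirenal, 2 of 6 back, 2 of 6 sternum and 1 of 6 inguinal libraries. The line of 20 CPM was not planned and lies just under the lowest pericardial value (21.7 CPM), so it favours that depot. By mean log2 CPM the depots ran PCAT 5.61, BSAT 4.60, OAT 4.01, PRAT 3.91, IAT 3.34 and SSAT 2.92, with no neighbours apart by more than their pooled SD.

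In back fat miR-206 and miR-133b, the pair made from 1 skeletal muscle transcript, were called higher than in the mean of the other 5 depots. These were 2 of the 6 muscle miRNAs, where 2.25% of all features tested were called and 1.65% called higher. The fitted log2 difference was 4.12 ± 0.69 for miR-206 (edgeR adjusted p = 0.000594) and 2.82 ± 0.79 for miR-133b (adjusted p = 0.047). Only 2 of 6 animals had more of either in back fat than on average in their other depots. Without BSAT2 the differences were −0.17 for miR-206 and −0.51 for miR-133b, so both signs turned. With the animal as a block the differences were 1.96 for miR-206 (adjusted p = 0.491) and 1.91 for miR-133b (adjusted p = 0.439), and neither was called.

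miR-133b was at 0.641, 42.4, 0.666, 0.0900, 0.450 and 1.89 CPM in the back fat of animals 1 to 6, and 0.0741 to 0.752 CPM in sternum fat. It stood at 0.267 to 2.08 CPM in inguinal, 0 to 2.51 CPM in omental, 0 to 2.81 CPM in pericardial and 0 to 19.3 CPM in perirenal fat. BSAT2 and PRAT6 were the libraries above 3 CPM. miR-133a was at 5.93, 58.5, 0.333, 0.630, 2.79 and 1.44 CPM in back fat, and 0 to 1.45 CPM in sternum fat. It reached 2.75 CPM in inguinal, 5.71 in omental, 13.4 in pericardial and 17.9 CPM in perirenal fat. Its back fat difference was 2.51 ± 0.73 (adjusted p = 0.0594), with 3 animals higher and 3 lower. miR-133a had more counts than miR-133b in 29 libraries and fewer in 7, and the ratio of their summed counts was 1.65.

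Of the 36 libraries BSAT2 had the highest miR-133a (58.5 CPM), miR-133b (42.4 CPM) and miR-206 (2228 CPM), and after PRAT6 the highest miR-1 (607 CPM). The heart and slow-fibre members did not share this: miR-208b was at 0 counts and miR-499 at 13.2 CPM in BSAT2, inside the 8.64 to 28.9 CPM of the other back libraries. miR-451 was also highest in BSAT2, at 174000 RPM against 6110 to 117000 RPM in the other 35 libraries. miR-486, which is found in erythrocytes and in muscle, was at 453 RPM there against 15.5 to 369 RPM. Across back fat miR-486 (1.68 ± 0.33, adjusted p = 0.00215) and miR-451 (1.33 ± 0.31, adjusted p = 0.011) rose, while miR-144, the last of the 3 erythroid rows, was not called (0.15 ± 0.51, adjusted p = 0.947). The parts of blood and of muscle fibres in the BSAT2 values were not tested.

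**Figure D3:**
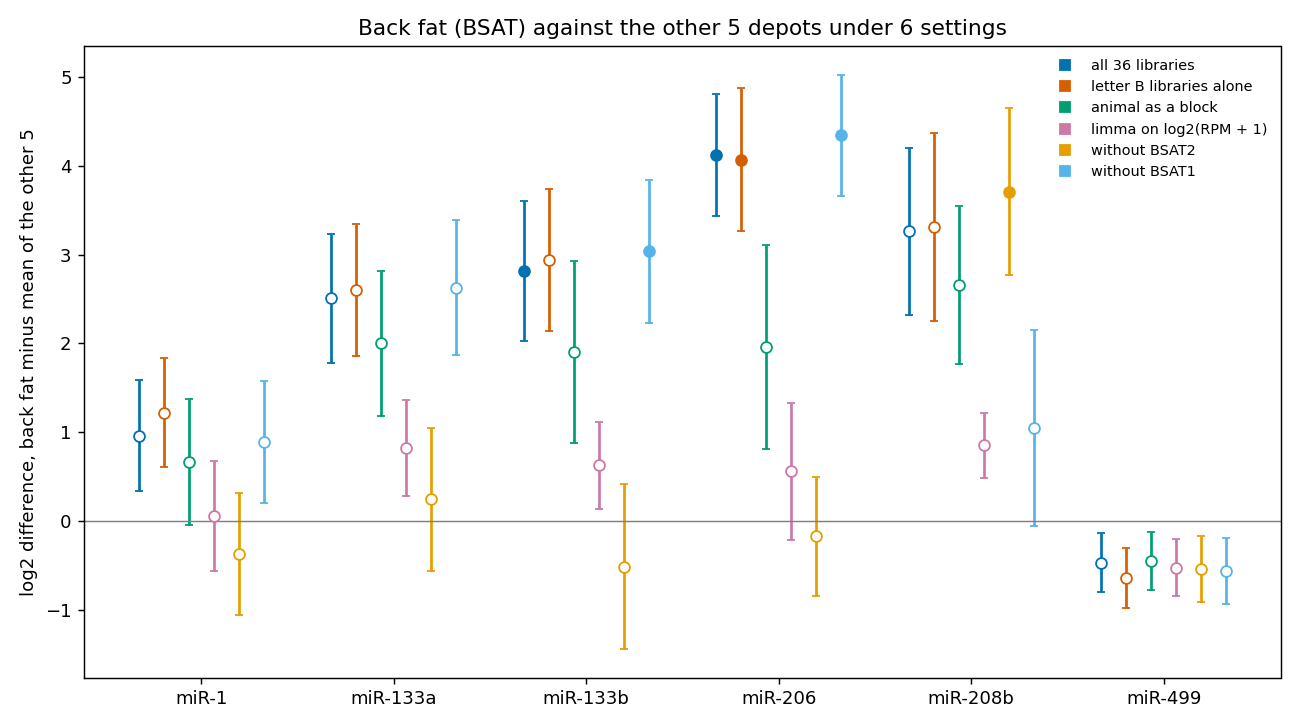
Fitted log2 difference (± SE), back fat minus the mean of the other 5 depots, for each muscle miRNA under 6 settings, where filled points passed an adjusted p of 0.05 and the limma values are on the log2(RPM + 1) scale. miR-206 stood at 4.12 with all libraries and at −0.17 without BSAT2; miR-208b stood at 3.26 with all libraries and at 1.05 without BSAT1.

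Among the depots as a whole miR-206 was the muscle miRNA called by the F test over all 6 (adjusted p = 0.00221), where 13.9% of features were called. That call was lost without BSAT2 (adjusted p = 0.179) and with the animal as a block (adjusted p = 0.15). The other 5 had adjusted p of 0.0843 to 0.165.

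Pericardial fat, the depot beside the heart, had more miR-206 than the animal's other depots in 5 of 6 animals. miR-206 exceeded miR-1 in 4 of 6 pericardial libraries, against 2 of 6 in back, 2 of 6 in sternum, 1 of 6 in inguinal, 1 of 6 in omental and 0 of 6 in perirenal fat, a difference that was not tested. For miR-206 the fitted difference was 1.09 ± 0.77 (adjusted p = 0.491) with all libraries. Without BSAT2 it was 1.78 and was called (adjusted p = 0.0332). It fell to 0.35 without PCAT6, and with the animal as a block it was 1.59 and not called (edgeR adjusted p = 0.176). miR-499 in pericardial fat was at 9.02, 36.3, 30.6, 21.6, 38.6 and 35.9 CPM, also higher in 5 of 6 animals (0.80 ± 0.30, adjusted p = 0.0972). None of the 6 was called there with all libraries, where 9.15% of features were. In inguinal and omental fat none was called either, with 0.300% and 1.50% of features called.

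miR-208b and miR-208a had few counts in the depot beside the heart, where miR-499 had its highest depot mean. miR-208b had 15, 7, 0, 0, 2 and 14 counts in the 6 pericardial libraries, and its mean log2 CPM of −1.17 was next after the −0.05 of back fat. On the log2 scale it was higher there than the mean of the animal's other depots in animals 1, 2 and 6, and lower in animals 3 and 5. Animal 4 had 0 counts in all 6 depots. The fitted difference was −0.25 ± 1.25 (adjusted p = 0.944). That sign turned with the animal as a block (0.70), without OAT5 (0.12) and without BSAT1 (0.029), so no direction is given. miR-208a, which lies in an intron of the heart myosin gene MYH6, had 3 counts in PCAT1 and 0 in the other 5 pericardial libraries. Across the study miR-208a had 32 counts, at most 9 in a library, and it was not tested. It was found in 10 libraries, 9 of which also held miR-208b. Since miR-208a and miR-208b are similar in sequence, which row such a read was given to is uncertain.

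The skeletal pair was set beside the heart and slow-fibre pair as the log2 ratio of miR-206 plus miR-133b to miR-208b plus miR-499 counts, with 0.5 added to each sum. Over all libraries miR-206 had 38708 counts against 1021 of miR-133b, and miR-499 had 8785 against 416 of miR-208b. The ratio was therefore mostly that of miR-206 to miR-499, and says little of miR-133b and miR-208b. It ran from −2.49 to 7.42 with a median of −0.69. The skeletal sum was the higher in 16 libraries and the lower in 20. By depot the ratio is given as a mean and a median. It averaged 0.91 ± 1.63 (SD, n = 6) in pericardial fat, 0.72 ± 3.72 in back fat, −0.10 ± 1.26 in perirenal, −0.27 ± 1.69 in omental, −0.50 ± 1.79 in inguinal and −0.61 ± 1.42 in sternum fat. The medians were 0.617 in pericardial, −1.11 in back, 0.375 in perirenal, −1.08 in omental, −1.20 in inguinal and −0.428 in sternum fat. The back fat mean was raised by BSAT2, which stood at 7.42. The skeletal sum was the higher in 4 of 6 pericardial and 4 of 6 perirenal libraries, in 3 of 6 sternum, 2 of 6 back, 2 of 6 omental and 1 of 6 inguinal libraries. Depots next to each other in the order of the means had means closer than the SD within any depot. Whether muscle adhering to the tissue gave these reads was not tested.

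miR-208b had uneven counts over the animals. It had 225, 0, 4, 0, 21 and 20 counts in the back fat of animals 1 to 6, and 13, 0, 0, 0, 15 and 0 in sternum fat. It was detected in 5 of 6 libraries of animals 1, 5 and 6 each, in 1 of 6 of animals 2 and 3 each, and in 0 of 6 of animal 4. Together these were 15 of 18 libraries of the first set of animals and 2 of 18 of the others, a division made after the counts were seen. The F test over animals, with depot in the model and also chosen after the counts were seen, called miR-208b (edgeR adjusted p = 0.0048), where 11.7% of features were called. Libraries with at least 10 counts of miR-208b numbered 4, 0, 0, 0, 3 and 2 in animals 1 to 6. It thus passed the low-count filter only through animals in which it was high, and this call is no independent support for the division. The test gave adjusted p for the other members too. For miR-133a it gave 0.0574, for miR-133b 0.0893, for miR-206 0.112, for miR-1 0.206 and for miR-499 0.389. In animal 6 miR-206 had a median of 43.4 CPM over the 6 depots and did not fall under 21.6 CPM, and miR-133b had a median of 2.30 CPM. In animal 3 these medians were 4.99 and 0.174 CPM.

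BSAT1 alone held 54.1% of the miR-208b counts, at 18.0 CPM, where miR-208b made 8.76% of the reads of the 6 (7.73 to 9.92%). Back fat held more miR-208b than the animal's other depots on average in animals 1, 3, 5 and 6, and less in animal 2. Animal 4 had 0 counts in all 6 libraries. The fitted back fat difference of miR-208b was 3.26 ± 0.94 (adjusted p = 0.0594). It was 1.05 without BSAT1, and without BSAT2 it was 3.71 and called (adjusted p = 0.0405). In BSAT1 miR-1 was at 159 CPM, but miR-206 (10.3 CPM) and miR-133b (0.641 CPM) were within the range of the other back libraries. The highest library was thus BSAT2 for miR-206, PRAT6 for miR-1 and BSAT1 for miR-208b.

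**Figure D4:**
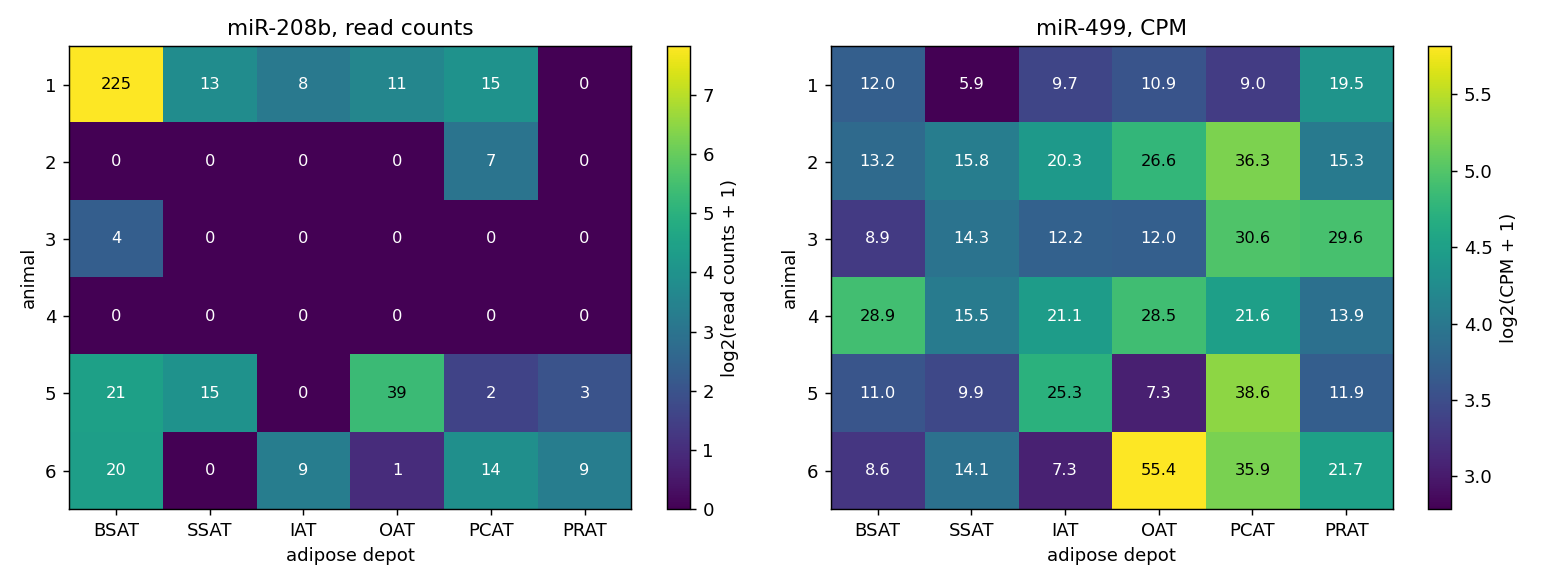
Read counts of miR-208b (left) and CPM of miR-499 (right) for each animal (rows) and depot (columns), coloured on a log2 scale. miR-208b was at 0 in all 6 libraries of animal 4 and reached 225 counts in BSAT1, while miR-499 was found in every library.

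miR-499 was lower in subcutaneous than in visceral fat, the one muscle miRNA called in the comparison of the 2 classes, where 16.5% of all features tested were called and 9.30% called lower. A single call among the 6 muscle miRNAs was near the share of all features called, so the count does not set them apart. In subcutaneous fat miR-499 was at 5.89 to 28.9 CPM with a median of 12.7 and a mean of 14.1 ± 6.24 CPM (SD, n = 18). In visceral fat it was at 7.30 to 55.4 CPM with a median of 21.6 and a mean of 23.6 ± 12.7 CPM (SD, n = 18). The ranges overlapped, and 5 of 6 animals had less in their subcutaneous depots. The fitted log2 difference was −0.73 ± 0.24 (edgeR adjusted p = 0.0363), beside a median of −0.09 over all features.

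The call was narrow. It was lost in letter B libraries alone (−0.54, adjusted p = 0.224), where mean miR-499 was 13.2 ± 5.19 CPM over 17 libraries of subcutaneous fat and 19.7 ± 9.99 CPM over 11 of visceral fat. With the letter as a covariate it was lost as well (−0.48, adjusted p = 0.193). BSAT4, the only subcutaneous letter A library, stood at 28.9 CPM, and the 7 visceral ones averaged 29.6 ± 15.0 CPM. Letter A libraries were higher in miR-499 than letter B libraries within depots by 0.76 ± 0.29 (adjusted p = 0.298), where 1.05% of features and none of the 6 muscle miRNAs were called. The call was also lost without any 1 of 16 libraries, and over all 36 such fits the difference stayed between −0.80 and −0.57. By depot the mean log2 CPM of miR-499 ran PCAT 4.70, OAT 4.23, PRAT 4.17, IAT 3.88, BSAT 3.67 and SSAT 3.60, all neighbours within 1 pooled SD.

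The other 5 were not called between the classes. Mean miR-1 was 76.0 ± 138 CPM in fat under the skin and 139 ± 277 CPM in visceral fat (SD, n = 18 each), with a fitted difference of −1.05 ± 0.51 (adjusted p = 0.155) and 5 of 6 animals lower in subcutaneous fat. That difference was called without BSAT2 (−1.43) and was −0.24 without PRAT6. miR-206 had a higher mean in subcutaneous fat, 138 ± 522 CPM against 36.6 ± 43.3 CPM in visceral fat, but a lower median, 8.18 against 22.1 CPM, and 4 of 6 animals were lower. Its fitted difference, 0.41 ± 0.63 (adjusted p = 0.698), was −1.01 without BSAT2. miR-133a (−0.37 ± 0.64), miR-133b (−0.14 ± 0.69) and miR-208b (0.90 ± 0.91) had adjusted p of 0.726, 0.92 and 0.532.

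The 6 did not vary as 1 group. Over the 36 libraries, which share animals and depots, Spearman's rho of log2 CPM was 0.72 between miR-1 and miR-133a, 0.66 between miR-1 and miR-133b and 0.74 between miR-133a and miR-133b. It was 0.45 between miR-206 and miR-133b, which share a transcript, and 0.31 between miR-206 and miR-1. The rho of miR-133b is limited by its low counts, which reached 10 in 14 libraries, and by reads that may be divided with miR-133a. miR-208b went with miR-133a (0.52) and miR-133b (0.51). miR-499 was the least like the other 5: rho was 0.07 with miR-206, 0.13 with miR-1, −0.14 with miR-133a, −0.20 with miR-133b and −0.45 with miR-208b. Without BSAT2 and PRAT6 the value for miR-499 and miR-208b was −0.50. Where miR-208b had 10 counts or more, in 9 libraries, miR-499 had a median of 9.87 CPM, and where miR-208b was at 0, in 19 libraries, a median of 19.5 CPM. The library letter moved with this: 0 of the 9 and 5 of the 19 had letter A. In letter B libraries alone, a split chosen after seeing the data, the medians were 9.87 and 18.0 CPM and rho was −0.62 over 28 libraries.

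**Figure D5:**
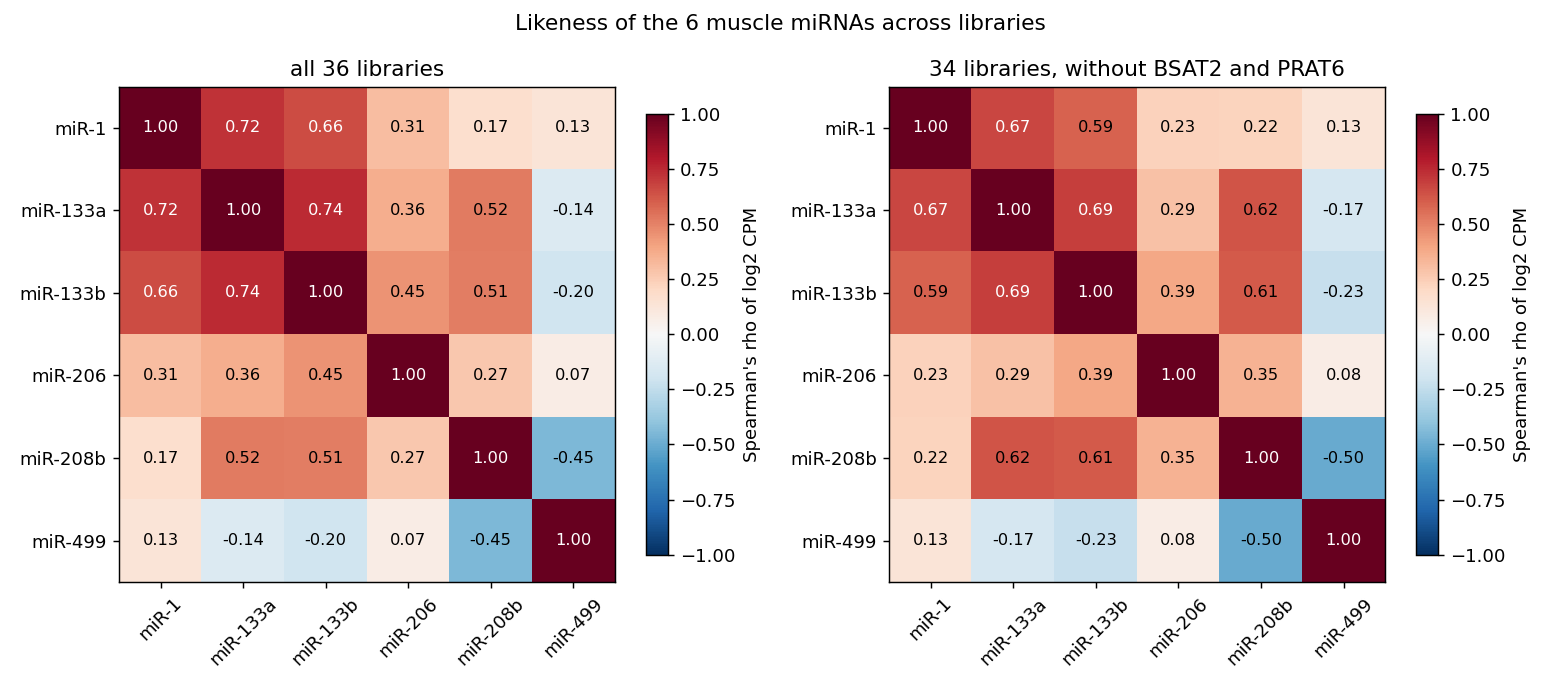
Spearman's rho of log2 CPM between the 6 muscle miRNAs over all 36 libraries (left) and over 34 libraries without BSAT2 and PRAT6 (right). miR-1, miR-133a and miR-133b formed the block of highest values, 0.66 to 0.74 over all libraries, and miR-499 with miR-208b the lowest, −0.45.

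Among 206 other bovine-named miRNAs of at least 10 CPM, those most like each member over the same 36 libraries were found by rho. For miR-499 they were miR-146a (0.71), an immune-cell and inflammation miRNA, miR-660 (0.67) and miR-15a (0.63). miR-146a had a median of 14.1 RPM in back, 13.7 in sternum and 15.0 RPM in inguinal fat, against 19.5 in omental, 31.8 in pericardial and 20.2 RPM in perirenal fat. It was itself called lower in subcutaneous fat (−0.96 ± 0.33, adjusted p = 0.0436), and was among 3 of 6 members of the leukocyte list that were, where 9.30% of all features tested were called lower. Another member, the myeloid miRNA miR-223, had the opposite sign and was not called (0.45 ± 0.29, adjusted p = 0.298). The summed leukocyte list ran from 1560 to 25900 CPM over libraries of subcutaneous fat and from 3070 to 47000 CPM over those of visceral fat, and its part in the miR-499 level was not tested.

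For miR-1 the closest was miR-378 (0.52), which lies in PPARGC1B and is expressed in muscle and adipocytes, then miR-11977 (0.45) and miR-455-3p (0.44). miR-133a and miR-133b both went most closely with miR-11977 (0.52 and 0.45) and then miR-181c (0.45 and 0.40). For miR-206 they were miR-200a (0.51), miR-3065 (0.47) and miR-429 (0.43), where miR-200a and miR-429 are epithelial miRNAs of 1 cluster. For miR-208b they were miR-30f, miR-505 and miR-574, at 0.49 to 0.50. All of these values were lower than that of miR-499 with miR-146a.

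Of 18 rows for miRNAs reported to act in myogenic differentiation, 17 were tested. Between the classes 2 rose in subcutaneous fat, where 7.20% of all features were called higher, and 0 fell: miR-214, also a stromal miRNA, by 1.49 ± 0.42 and miR-27b by 0.51 ± 0.15, both with an adjusted p of 0.0145. The median over the 17 was −0.12 on the log2 scale, against −0.09 over all features. Both were also called higher in sternum fat (miR-214 1.75 ± 0.49, miR-27b 0.62 ± 0.19), where 5.55% of features were called higher. Sternum fat is among the subcutaneous depots, so these calls are not separate from those between the classes. None of the 17 was called in back fat, where their median was −0.02, the same as over all features. Of the other cell type lists, 0 of 2 endothelial rows were called between the classes, where 16.5% of all features were called. Of the adipocyte rows 1 of 7 was called, miR-103 (0.52 ± 0.14, adjusted p = 0.0125). That count is near the share of all features, so it does not set the adipocyte rows apart. Among smooth muscle and stroma rows 3 of 6 rose in subcutaneous fat, beside 7.20% of all features called higher.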

How the data were processed

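Small RNA from 36 adipose samples was sequenced by the authors (RNeasy Lipid Tissue Mini Kit and TruSeq RNA LT kit v2, per the labels' protocols). The authors deposited whole-number read counts per feature, not normalized, with RPM values beside them, and dividing the counts by library totals gave back the deposited RPM to within 4.79e-06. The submitters' processing notes name DESeq2 1.24.0, with no role. The aligner, the miRNA caller and the build were not given in the sources used here. A blank row with 0 counts was left out, and no column of another series was present.

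Counts were fitted in R 4.3.3 with edgeR 4.0.16 (TMM factors 0.745 to 1.26, filterByExpr with a minimum count of 10, robust glmQLFit, glmQLFTest, two-sided). The main fit had 1 coefficient per depot, no term for the animal and 30 residual degrees of freedom. SE is the size of the log2 difference over the square root of its F statistic. p-values were adjusted by Benjamini-Hochberg over all 667 features. limma 3.58.1 on log2(RPM + 1) and DESeq2 1.42.0 were alternatives, and the fit was checked on simulated counts. The closest pair of libraries differed by a chi-square of 826 per degree of freedom, so none was a duplicate.

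Same-numbered libraries come from 1 animal, so the number pairs them. Their deviations from depot means correlated by 0.198 on average, against −0.0392 between animals, and 64 of 90 pairs exceeded 0.1. The main fit leaves this pairing out, and the fit with the animal as a block takes it in. The 6 members are all named; other miRNAs are the 3 most like each member and the called members of marker lists. Members and lists were chosen with earlier results of these data known.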

Additional observations from a re-analysis of the deposited data

Results flagged for a closer look

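In 3 of 36 groups of 6 libraries (each muscle miRNA in each depot), a library stood apart on the log2 CPM scale by Dixon's test. Chance alone flags about 5% of such groups.

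miR-1 in PRAT6 was 1210 CPM, against 27.5 to 81.8 CPM in the other 5 perirenal libraries. miR-206 in IAT6 was 60.0 CPM, against 4.61 to 9.28 CPM in the other 5 inguinal libraries. miR-499 in BSAT4 was 28.9 CPM, where the remaining back libraries held 8.64 to 13.2 CPM, and BSAT4 is the only subcutaneous library with letter A. miR-206 in BSAT2, the highest value of any muscle miRNA, was not among these, and the other 5 back libraries ran from 2.20 to 70.5 CPM.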

How the results depend on the processing

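With all libraries 1 of the 6 muscle miRNAs was called between the classes, 2 in back fat, 0 in each other depot, 1 over the 6 depots and 1 over the 6 animals. The class count was 0 with no filter, with the library letter as a covariate, in letter B libraries alone, and without BSAT2 and PRAT6. Leaving out both of these libraries together and the miR-26a split were chosen after seeing the data. The back fat count was 1, miR-206, with library totals alone, no filter, at least 10 CPM, the letter as covariate, letter B alone and the miR-26a split as covariate. It was 0 with the animal as a replicate block and with limma, and 1, miR-208b, without BSAT2 and PRAT6. At 10 CPM only 3 of the 6 were tested, and miR-133b was not among them. DESeq2 called 2 in back fat, but as a different pair: miR-133a (adjusted p = 0.0495) and miR-133b (adjusted p = 0.0497). The sternum count was 1, miR-1, with library totals, at least 10 CPM and DESeq2. The pericardial count was 1 with library totals (miR-499) and without both libraries (miR-206), and the perirenal count 1 (miR-1) in letter B alone. Over the depots the count was 2 with library totals and in letter B alone, 0 with the block, limma or without both libraries, and 3 by DESeq2. Over the animals it was 2 with library totals and without both libraries, 0 at 10 CPM, where miR-208b is not tested, and 4 with the letter covariate and by DESeq2. DESeq2 gave no adjusted p for miR-206 between the classes, in any depot or over the depots. The block changed no other call of a muscle miRNA.

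Leaving out 1 animal or 1 library, counts ran from 0 to 1 between the classes and in pericardial and perirenal fat, 0 to 4 in back fat, 0 to 3 over the depots and 1 to 4 over the animals. The miR-499 class call was lost without BSAT1, 2, 3, 5 or 6, SSAT1 or 6, IAT1, 3 or 6, OAT6, PCAT3, 5 or 6, or PRAT1 or 3. The miR-133b back fat call was lost without any 1 of 24 libraries, all 6 of SSAT, IAT1 to 5, OAT2 to 5, BSAT2 and 6, PCAT1, 4 and 5, and PRAT1, 3, 4 and 5. miR-208b in back fat was called without any 1 library other than BSAT1 and 6, SSAT3 and 4, IAT3 to 5, OAT4, PCAT2, 4 and 5, and PRAT1, 3, 4 and 5, and miR-133a without BSAT3, 4 or 5, OAT6, PCAT6 or PRAT6. Without BSAT2 the calls of miR-206 in back fat and over the depots were lost, and miR-1 was called between the classes and in perirenal fat. Without PRAT6 miR-133a and miR-133b were also called over the depots. Over the animals miR-206 was called without BSAT2, miR-133b without PRAT2, and miR-133a without BSAT2 or 6, SSAT4 or 6, OAT2 or PRAT2.

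Some directions turned. Between the classes miR-133a was 0.041 and miR-133b 0.10 with the block, and miR-206 was −0.67 with the block, −0.11 with the letter covariate, −0.99 by limma and −0.98 without both libraries. miR-206 in back fat was −0.16 without both libraries. In pericardial fat miR-208b was 0.70 with the block and 0.76 with the letter covariate. In perirenal fat miR-1 was −0.29 and miR-133b −0.58 without both libraries. The cause was not tested. Over single animals or libraries left out, the class differences ran from −1.43 to 0.087 for miR-1, −1.09 to 1.01 for miR-133a, −1.20 to 1.07 for miR-133b, −1.16 to 0.80 for miR-206 and −0.16 to 1.57 for miR-208b. In back fat they ran from −0.44 to 1.74 for miR-1, −0.58 to 3.88 for miR-133b and −0.25 to 4.79 for miR-206, in perirenal fat from −0.51 to 2.22 for miR-1 and −1.19 to 2.31 for miR-133b, and in pericardial fat from −0.92 to 0.25 for miR-208b.

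Counts over all features moved too: between the classes 110 became 71 with the letter covariate and 39 in letter B alone; in back fat 15 became 40 with no filter; in sternum fat 62 became 30 with no filter, 25 in letter B alone and 97 by DESeq2; in inguinal fat 2 became 21 with no filter and 4 by DESeq2. In omental fat 10 became 20 with library totals, 126 with no filter, 3 with the block, 2 in letter B alone and 21 by DESeq2; in pericardial fat 61 became 34 in letter B alone; in perirenal fat 21 became 73 with no filter, 10 in letter B alone and 32 by DESeq2. Over the depots 93 became 43 in letter B alone and 172 by DESeq2, and over the animals 78 became 42 at 10 CPM and 176 by DESeq2. Without 1 animal or library the lowest of these counts were 56 between the classes, 6 in back, 16 in sternum, 30 in pericardial and 10 in perirenal fat, 40 over the depots and 40 over the animals; omental counts ran from 1 to 27. With library totals alone the miRNA most like miR-499 was miR-660 (0.76), followed by miR-146a (0.73). Counting depth limits miR-208b and miR-133b most, since most libraries held under 10 counts of them.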
